A study of Mus musculus with 6 samples.

Results

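The subject is a group of 9 genes whose products are membrane, secreted or nuclear markers of mesothelium: Msln, Muc16, Upk1b, Upk3b, Lrrn4, Nkain4, Bnc1, Gpm6a and Slpi. They were taken by name from tables of 49671 genes, and all 9 were found once. The choice was made with earlier results of these data known, in which such genes stood far lower in the GFP than in the Tomato libraries. The difference between the fractions is therefore given for the members as a description, without a test.

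RNA was sequenced from cells sorted out of mouse pancreatic tumours, in 3 GFP and 3 Tomato libraries. All hosts were C57BL/6J mice carrying Rosa-mTmG and Fabp4-Cre, injected in the pancreas at 8 weeks of age with FC1199, a mouse pancreatic cancer line, and aged 12 weeks at harvest after 4 weeks of tumour growth. All sorted cells carried Podoplanin. The GFP group holds the cells in which Cre had switched the reporter, labelled as cancer-associated fibroblasts (CAFs) derived from stellate cells. The Tomato group holds the cells in which Cre had not done so, labelled as CAFs of non-stellate origin. No group lacked tumour, Cre or reporter. The Fabp4 promoter is known to be active in fat cells, endothelium and macrophages, so the colour alone does not fix a cell type. Podoplanin is also made by mesothelium and lymphatic endothelium, so the gate can admit both. The labels do not say whether libraries came from separate or pooled animals, so p-values measure only the spread between these samples.

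Mesothelium is the single layer of flattened cells that covers the organs of the body cavities, the pancreas included, and lines their walls. It makes keratins like an epithelium, yet arises from mesoderm and shares genes with fibroblasts. Its free face carries a glycoprotein coat that keeps organs sliding. In mouse pancreatic tumours mesothelial cells have been described as a source of antigen-presenting CAFs. Msln encodes mesothelin, a protein on a lipid anchor, and Muc16 a very large membrane mucin that binds it. Upk1b and Upk3b encode uroplakins, first known as plaque proteins of the bladder lining. Lrrn4 encodes a membrane protein with leucine-rich repeats, Nkain4 a small membrane protein of a family that interacts with the sodium pump, and Gpm6a a glycoprotein of the neuronal surface. Slpi encodes a secreted inhibitor of serine proteases such as neutrophil elastase. Bnc1 encodes basonuclin 1, a zinc finger protein of the nucleus, and is the member of the group that is neither on the surface nor secreted.

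In the deposited counts the library totals ran from 33378377 to 42154933 reads in genes. Levels are CPM, reads relative to library size after trimmed mean of M values (TMM) scaling, and levels of different genes are compared only as CPM per kilobase of exon. The fractions differed widely: of 15608 genes tested by edgeR's quasi-likelihood test, 15.7% were lower and 13.1% higher in GFP at an adjusted p under 0.05. Of all calls 45.5% were higher in GFP, and 22.7% with library size alone as the scaling. All 9 members passed the filter on low counts. Of these, 8 reached its level of 0.272 CPM in every GFP library, while Muc16 reached it in 1 and passed through its Tomato libraries.

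Promoter stretches are shown for the members with a match to GGAATG, the core letters bound by TEAD factors. Of the letter runs searched, only this one had a match, and starts without a match are not shown. That the members were low together in GFP does not single out these letters. The sequences are from RefSeq, build GRCm38.p6, read 5′ to 3′ on the gene's strand and ending at or before the start site. Capitals mark GGAATG or its reverse complement. The Lrrn4 stretch leaves out the 29 bases next to the RefSeq start, which lie inside the GENCODE gene. The stretches are chr2:132880892-132881112 on the minus strand for Lrrn4, chr5:136038246-136038495 on the plus strand for Upk3b and chr8:54779184-54779433 on the plus strand for the upstream start of Gpm6a.
Lrrn4: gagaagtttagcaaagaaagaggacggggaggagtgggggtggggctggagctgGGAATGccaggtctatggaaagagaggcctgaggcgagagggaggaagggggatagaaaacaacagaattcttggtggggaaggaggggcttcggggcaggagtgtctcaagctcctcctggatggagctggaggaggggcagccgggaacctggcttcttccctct
Upk3b: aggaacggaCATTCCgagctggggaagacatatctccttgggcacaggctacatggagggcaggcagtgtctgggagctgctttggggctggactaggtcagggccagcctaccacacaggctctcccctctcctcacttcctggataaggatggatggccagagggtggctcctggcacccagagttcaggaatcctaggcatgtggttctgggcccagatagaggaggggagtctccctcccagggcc
Gpm6a: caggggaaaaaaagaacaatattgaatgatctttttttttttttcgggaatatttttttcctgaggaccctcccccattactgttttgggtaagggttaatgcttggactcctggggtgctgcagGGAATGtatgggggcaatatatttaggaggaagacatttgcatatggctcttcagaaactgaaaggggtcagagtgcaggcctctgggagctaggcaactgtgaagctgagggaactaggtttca
Promoters were found for 6 members, with 7 start sites. In the 250 bases before the start, GGAATG on either strand was present for 3 of the 6 genes and at 3 of the 7 start sites. It lay 196 bases before the start in Lrrn4, 241 in Upk3b and 125 in Gpm6a. Of all 32851 promoters of that length, 12.6% held it. The Gpm6a match lies before a RefSeq start 175409 bases upstream of the gene as the counting annotation has it, and the nearer Gpm6a start had no match. The AP-1 letters TGANTCA (6.75% of all promoters), the GATA letters AGATAA (9.99%) and the WT1 letters GCGNGGGCG (4.7%) had no match before any of the 7 member starts. The Slpi stretch, chr2:164356508-164356757 on the minus strand, had no match to any of these letters. It lies inside the GENCODE gene, so it does not describe the bases before the start of the gene as counted. A match is a run of letters in a window and was not tested as a binding site.

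All 9 members were lower in GFP, and for each of them every GFP library lay below every Tomato library. The same held for 25.2% of all genes tested. All 9 also had a log2 fold change (GFP over Tomato) of -2 or less, as had 4.8% of all genes tested, and since the members were chosen on this contrast nothing is read from their count. Their median log2 fold change was -5.17, against 0.00 for all genes tested. The 9 genes summed to 40.8, 73.7 and 108 CPM in the GFP libraries and to 1895, 2072 and 1761 CPM in the Tomato libraries. The GFP sum was on average 3.88% of the Tomato sum. In bulk RNA, fewer cells of a type and less RNA per cell cannot be told apart.

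**Figure D1:**
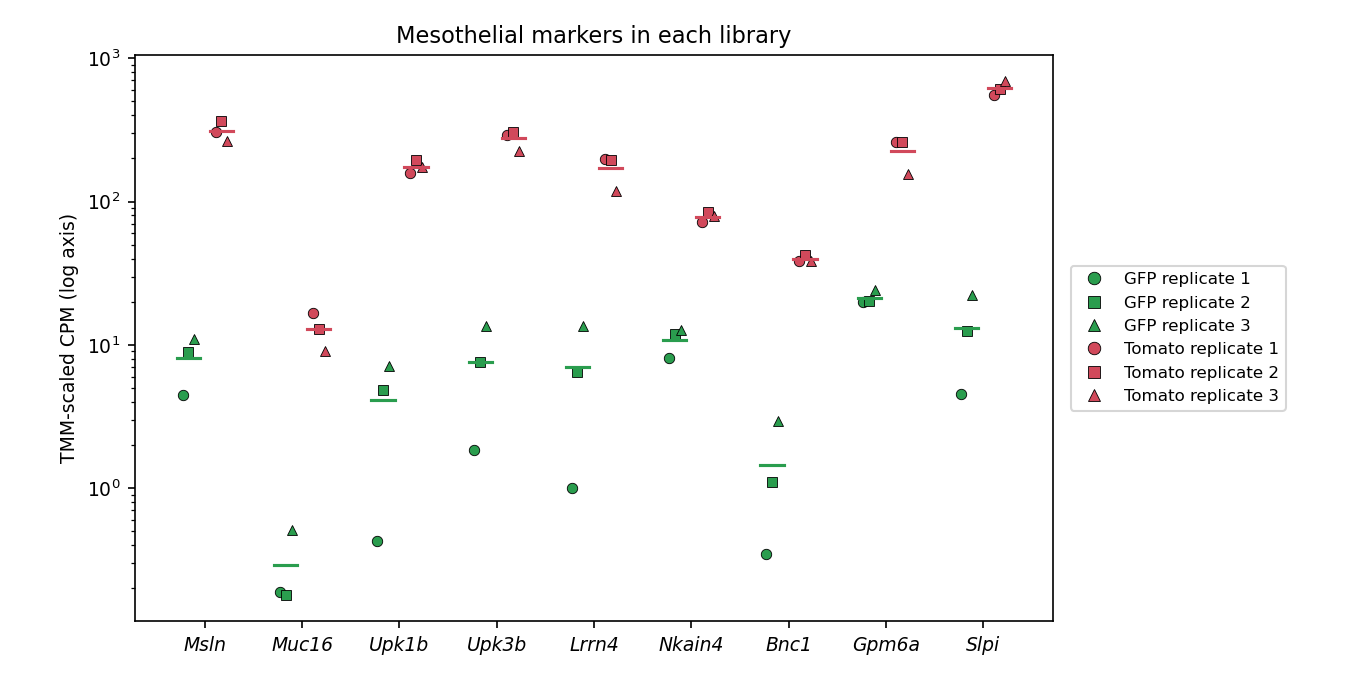
TMM-scaled CPM (log axis) of the 9 mesothelial markers in each library; points are libraries, with the shape giving the replicate, and bars are means of 3. Every GFP point lies below every Tomato point of its gene, and GFP replicate 3 is the highest GFP library for all 9 genes.

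Msln and Muc16 encode surface proteins that bind each other. Msln (chromosome 17, 25748613 to 25754378, minus strand) had 4.5, 8.92 and 11 CPM in the GFP libraries, against 306, 367 and 264 CPM in the Tomato libraries. GFP replicate 1 was the lowest, and even the highest GFP library was 23.9 times below the lowest Tomato library. The log2 fold change was -5.26, with means of 8.16 ± 3.34 CPM in GFP and 312 ± 51.5 CPM in Tomato (SD, n = 3 each). Muc16 (chromosome 9, 18495455 to 18674530, minus strand), which encodes the partner of mesothelin, rested on 7, 6 and 18 reads in the GFP libraries, against 722, 505 and 332 reads in the Tomato libraries. As CPM these were 0.188, 0.179 and 0.507 in GFP and 16.8, 13 and 9.01 in Tomato, which makes a log2 fold change of -5.46. The exact Poisson 95% intervals of the first 2 GFP values ran from 0.0758 to 0.388 and from 0.0657 to 0.39 CPM, so these libraries were not separable by counting. The interval of GFP replicate 3, from 0.301 to 0.802 CPM, overlapped both, and these intervals cover counting error only. Muc16 and Msln did not share their order in Tomato: Muc16 was highest in replicate 1 and Msln in replicate 2, and both were lowest in replicate 3.

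The uroplakin genes had the same order of libraries in GFP. Upk1b (chromosome 16, 38773184 to 38800328, minus strand) had 0.431, 4.86 and 7.13 CPM in GFP libraries, against 158, 194 and 173 CPM in Tomato libraries, a log2 fold change of -5.41. It varied 16.6-fold between the GFP libraries and 1.23-fold between the Tomato libraries. GFP replicate 1 held only 16 Upk1b reads, a 95% interval of 0.246 to 0.7 CPM, which ends far below the other GFP libraries. Upk3b (chromosome 5, 136038496 to 136046487, plus strand) had 1.86, 7.55 and 13.6 CPM in GFP libraries, against 292, 308 and 226 CPM in Tomato libraries, a log2 fold change of -5.17. It varied 7.3-fold between the GFP libraries. GFP replicate 3 was above replicate 2 and replicate 2 above replicate 1 for both genes.

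Lrrn4 (chromosome 2, 132868305 to 132880891, minus strand) had 0.996, 6.42 and 13.5 CPM in GFP, against 198, 196 and 119 CPM in Tomato, a log2 fold change of -4.62. The Tomato libraries split here, with replicate 3 below the other two, and the GFP libraries varied 13.5-fold. Nkain4 (chromosome 2, 180934772 to 180954699, minus strand) had 8.08, 12.0 and 12.7 CPM in GFP, against 71.9, 84.1 and 79.6 CPM in Tomato, a log2 fold change of -2.84. Gpm6a (chromosome 8, 54954843 to 55060871, plus strand) had 19.9, 20.1 and 24.1 CPM in GFP, against 262, 259 and 157 CPM in Tomato, a log2 fold change of -3.40. These were the 2 smallest differences of the group, and the GFP libraries varied little: 1.58-fold for Nkain4 and 1.21-fold for Gpm6a. Gpm6a shared with Lrrn4 the low value of Tomato replicate 3, which Nkain4 did not. Exons of Nkain4 and Gm14341 share 55 bases, and without strand their reads there cannot be told apart. The strand columns together held 3.27% more Nkain4 reads.

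Slpi (chromosome 2, 164354070 to 164389095, minus strand), the secreted protease inhibitor, was the most abundant member in Tomato. It had 4.55, 12.5 and 22.3 CPM in GFP libraries, against 552, 609 and 695 CPM in Tomato libraries, a log2 fold change of -5.56, the largest of the group. It was the only member with its highest Tomato value in replicate 3. Bnc1 (chromosome 7, 81966672 to 81992292, minus strand), the nuclear member, had 0.35, 1.1 and 2.93 CPM in GFP libraries, against 38.3, 42.4 and 38.4 CPM in Tomato libraries. Its log2 fold change was -4.77, and its GFP values varied 8.37-fold while its Tomato values varied 1.11-fold.

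One GFP library decided the size of several of these values. Without GFP replicate 3 the fold between the fractions, not in log2, grew by over 1.5 times in 6 members. The log2 fold change was then -6.11 for Muc16, -6.07 for Upk1b, -5.88 for Upk3b, -5.54 for Lrrn4, -5.79 for Bnc1 and -6.18 for Slpi. For Msln, Nkain4 and Gpm6a no left-out library moved the fold that far. GFP replicate 3 was the highest GFP library for 9 of 9 members, and for 30.1% of all genes tested. GFP replicate 1 was the lowest for 8 of 9, and for 36.6% of all genes tested. Muc16 was the exception, with replicate 2 just below replicate 1. In Tomato the members did not share an order: 5 were highest in replicate 2, 3 in replicate 1 and 1 in replicate 3.

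Set against the Tomato mean, the members divided into a set of 7 and a pair. In GFP the mean was 2.12% of the Tomato mean for Slpi, 2.25% for Muc16, 2.37% for Upk1b, 2.61% for Msln, 2.78% for Upk3b, 3.68% for Bnc1 and 4.07% for Lrrn4. It was 9.45% for Gpm6a and 13.9% for Nkain4, whose lowest GFP libraries, at 8.81% and 10.3%, lay above the highest GFP library of every other member. Within the set of 7 the libraries ran from 0.246% (Upk1b, GFP replicate 1) to 7.88% (Lrrn4, GFP replicate 3). This division was made after the values were seen.

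**Figure D2:**
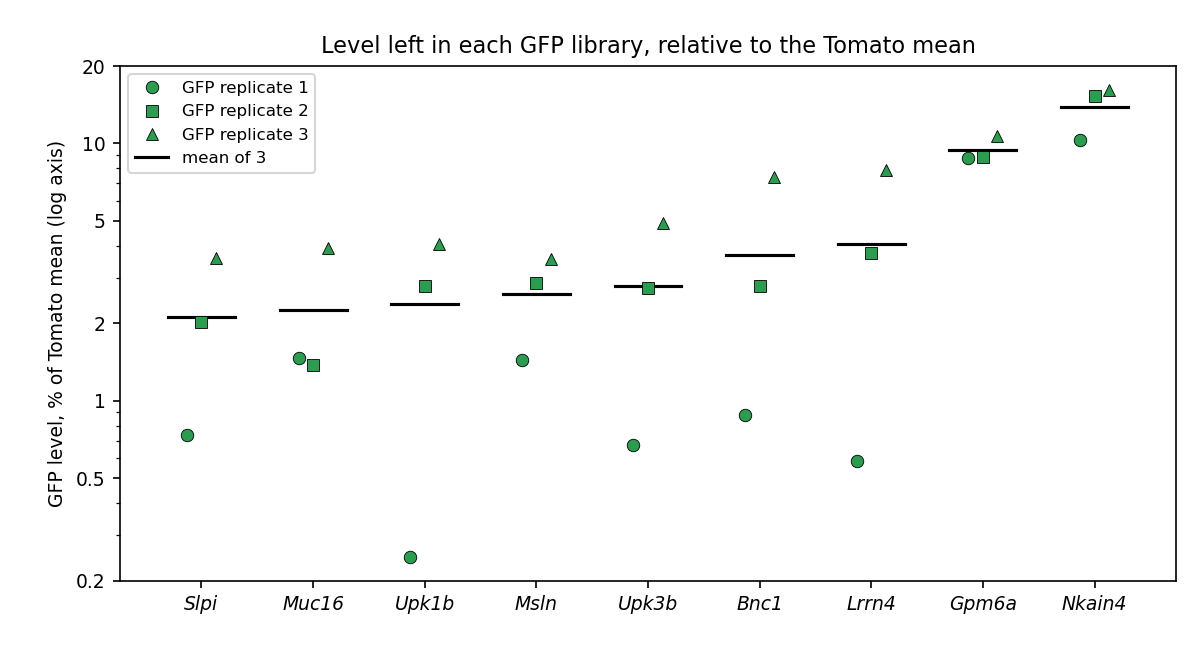
Level of each marker in each GFP library as a percentage of its Tomato mean (log axis), ordered by the mean of 3, which the bar gives. Gpm6a and Nkain4 stand at 9.45% and 13.9%, the other 7 markers between 2.12% and 4.07%.

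Per kilobase of exon, Slpi led in every Tomato library and Muc16 was last in both fractions. In GFP the lead of Slpi rested on replicate 3: in replicate 1 it stood at 3.86 CPM per kilobase, below Nkain4 at 6.52 and Gpm6a at 6.19, and without replicate 3 the mean of Nkain4 was 8.11 and that of Slpi 7.24. In GFP the order was Slpi (11.1 ± 7.52 CPM per kilobase), Nkain4 (8.84 ± 2.03), Gpm6a (6.64 ± 0.735), Msln (2.66 ± 1.09), Upk3b (2.17 ± 1.66), Upk1b (1.98 ± 1.63), Lrrn4 (1.87 ± 1.68), Bnc1 (0.315 ± 0.286) and Muc16 (0.0111 ± 0.00709; SD, n = 3). Of these neighbours, library ranges were apart only between Gpm6a and Msln and between Bnc1 and Muc16. In Tomato the order was Slpi (524 ± 60.8 CPM per kilobase), Msln (102 ± 16.8), Upk1b (83.8 ± 8.84), Upk3b (78.1 ± 12.3), Gpm6a (70.3 ± 18.6), Nkain4 (63.4 ± 5.0), Lrrn4 (46.0 ± 12.1), Bnc1 (8.55 ± 0.507) and Muc16 (0.492 ± 0.149). Slpi stood clear of Msln there, and the ranges of Nkain4 and Lrrn4, of Lrrn4 and Bnc1, and of Bnc1 and Muc16 were apart. From Msln to Nkain4 every neighbour overlapped. The place of Muc16 depends on its length, 26350 bases of exon in 86 blocks, over which the position of reads was not analysed here.

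As shares of the summed per-length level of the 9 genes, the proportions in Tomato were alike in replicates 1 and 2 and shifted to Slpi in replicate 3. Slpi took 20.2%, 29.6% and 36.4% of the total in the GFP libraries, against 50.4%, 50.2% and 60.3% in the Tomato libraries. Nkain4 took 34.1%, 27.0% and 19.9% in GFP, against 6.25%, 6.61% and 6.58% in Tomato. In each case the fractions did not overlap, and the GFP library nearest to Tomato was replicate 3. Gpm6a took 32.4%, 17.4% and 14.5% in GFP, against 8.78%, 7.85% and 5.0% in Tomato, again with no overlap. Msln kept 7.68%, 8.11% and 6.96% in GFP, against 10.8%, 11.7% and 8.84% in Tomato, a difference of -2.84 percentage points. The shares of Upk3b, Lrrn4, Bnc1 and Muc16 overlapped between the fractions, while Upk1b, at 4.72 ± 3.15% in GFP and 8.57 ± 0.469% in Tomato, did not. The largest shift was that of Slpi, by -24.9 percentage points (GFP minus Tomato). As shares of the same total, this fall is tied to the rises of Nkain4 and Gpm6a, by 20.5 and 14.2 points. The ratios of Slpi to Msln, Muc16, Upk1b, Upk3b and Lrrn4 overlapped between the fractions, those to Bnc1, Nkain4 and Gpm6a did not.

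**Figure D3:**
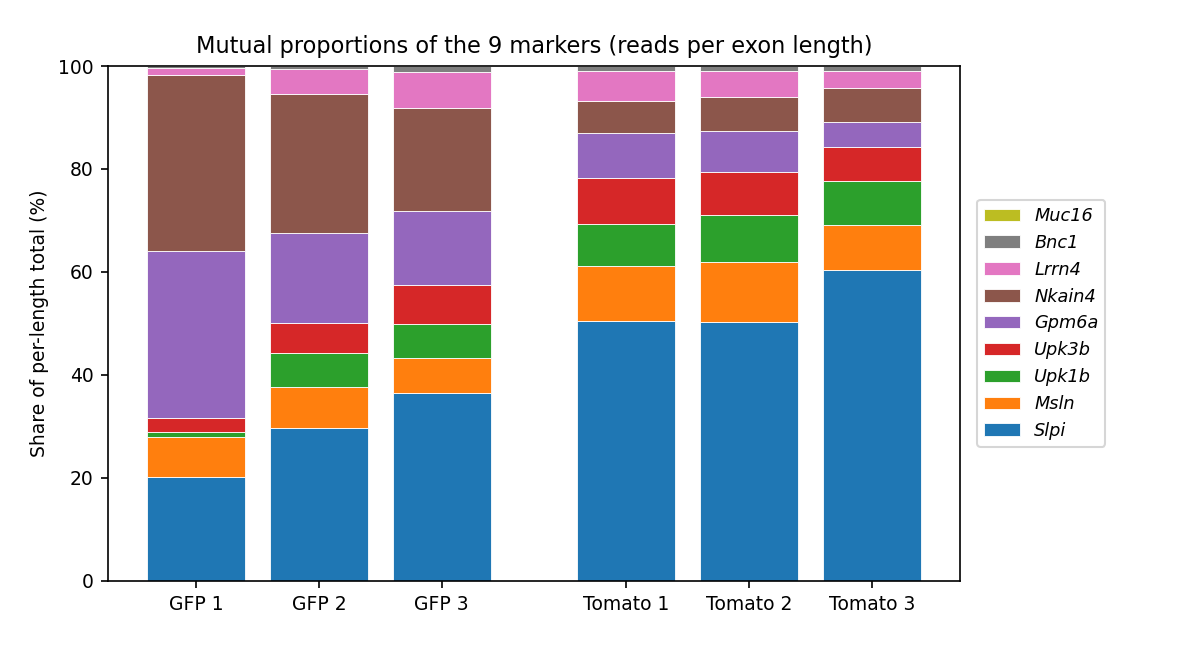
Share of each marker in the summed reads per exon length of the 9 markers, in percent, 1 bar per library. Slpi is the largest block in all Tomato bars, at 50.2% to 60.3%, while Nkain4 and Gpm6a together make the larger part of the bar of GFP replicate 1, at 34.1% and 32.4%.

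Among other genes described in mesothelium, all 5 keratins tested were lower in GFP, while Wt1, Pdpn and Aldh1a2 did not pass the test. Of 30 such genes 29 were tested, of which 18 were lower and 1 higher in GFP, with a median log2 fold change of -1.21. The shares over all genes tested were 15.7% and 13.1%. Several of these genes had been seen in earlier results of these data, so the count is no independent evidence of the direction. Krt8 averaged 14.5 ± 2.35 CPM in GFP, against 171 ± 10.5 CPM in Tomato (a log2 fold change of -3.56 with adjusted p = 4.29e-06). Its partner Krt18 had a log2 fold change of -3.02 (adjusted p = 4.29e-06), Krt7 of -2.91 (adjusted p = 4.38e-06) and Krt19 of -3.38 (adjusted p = 0.000132). Krt14, a keratin of basal epithelia, had 0.551 ± 0.202 CPM in GFP, against 17.1 ± 2.82 CPM in Tomato (a log2 fold change of -4.96 with adjusted p = 1.8e-05). Krt8 and Krt18 have pseudogene copies that can share their reads, so their counts are uncertain.

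Among further genes of this list, Ezr, which encodes ezrin, the link between microvilli and actin, was lower (a log2 fold change of -1.68 with adjusted p = 7.28e-05). Calb2, which encodes the mesothelial marker calretinin, had 0.296, 0.328 and 1.18 CPM in GFP libraries, against 5.72, 5.17 and 13.8 CPM in Tomato libraries. It was lower by edgeR (a log2 fold change of -3.76 ± 0.63, SE with adjusted p = 0.00625), with replicate 3 the highest in both fractions. Without GFP replicate 3 its log2 fold change was -4.70. Pkhd1l1, a gene for a large membrane protein, was lower (a log2 fold change of -3.62 with adjusted p = 0.00119; -4.22 without GFP replicate 3), as was the cadherin gene Cdh3 (a log2 fold change of -2.35 with adjusted p = 0.00457). Rspo1, which encodes an enhancer of Wnt signalling, averaged 24.8 ± 3.03 CPM in GFP, against 70.7 ± 12.7 CPM in Tomato (a log2 fold change of -1.51 with adjusted p = 0.000399). Dmkn, which encodes the secreted protein dermokine, and Cldn15, a tight junction gene, were lower too (log2 fold changes -1.53 and -1.11, adjusted p = 0.000704 and 0.0177), the Cldn15 call being lost without the filter on low counts (adjusted p = 0.0814). Of the 18 lower genes, 11 had their highest GFP value in replicate 3, among them Krt19, Calb2, Cdh3 and Pkhd1l1. Aqp1 did not pass (a log2 fold change of 0.43 with adjusted p = 0.0791), though every GFP library lay above every Tomato library. Efemp1, Tcf21 and Tbx18 did not pass either (log2 fold changes 0.28, 0.24 and -0.50, adjusted p = 0.607, 0.407 and 0.0894).

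The transcription factor genes of mesothelium did not move as one. Sox6 was lower in GFP, at 0.736 ± 0.391 CPM against 6.94 ± 0.728 CPM in Tomato (a log2 fold change of -3.23 with adjusted p = 0.00036). Myrf was lower by less (a log2 fold change of -1.21 with adjusted p = 0.000137), and Gata6 by less again (a log2 fold change of -0.63 with adjusted p = 0.00701). Wt1, a regulator of mesothelial development, had 118, 106 and 85.6 CPM in GFP libraries, against 110, 106 and 101 CPM in Tomato libraries. These overlapped, and the test did not pass (a log2 fold change of -0.03 ± 0.12, SE with adjusted p = 0.848). Gata4 had 0.296, 0.806 and 3.89 CPM in GFP, against 4.27, 6.54 and 10.2 CPM in Tomato, and did not pass (a log2 fold change of -2.07 with adjusted p = 0.088). Without GFP replicate 3 it did (a log2 fold change of -3.68 with adjusted p = 0.00642). Aldh1a2, the retinoic acid synthase gene, averaged 1247 ± 116 CPM in GFP, against 1090 ± 133 CPM in Tomato, and Lrrn4cl 385 ± 85.7 CPM in GFP and 274 ± 85.9 CPM in Tomato. Neither passed (adjusted p = 0.288 for Aldh1a2 and 0.187 for Lrrn4cl). The complement gene C3 averaged 13232 ± 4117 CPM in GFP, against 10661 ± 4173 CPM in Tomato and did not pass either (adjusted p = 0.487). Pdpn, the gene of the gate, had a log2 fold change of -0.10 (adjusted p = 0.481). The 1 higher gene was Ildr2 (a log2 fold change of 0.45 with adjusted p = 0.0291). Its adjusted p was 0.103 without GFP replicate 1, 0.051 without GFP replicate 2, 0.0549 without GFP replicate 3, 0.0634 without Tomato replicate 2, 0.0543 without Tomato replicate 3, and 0.0848 with library size as the scaling.

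**Figure D4:**
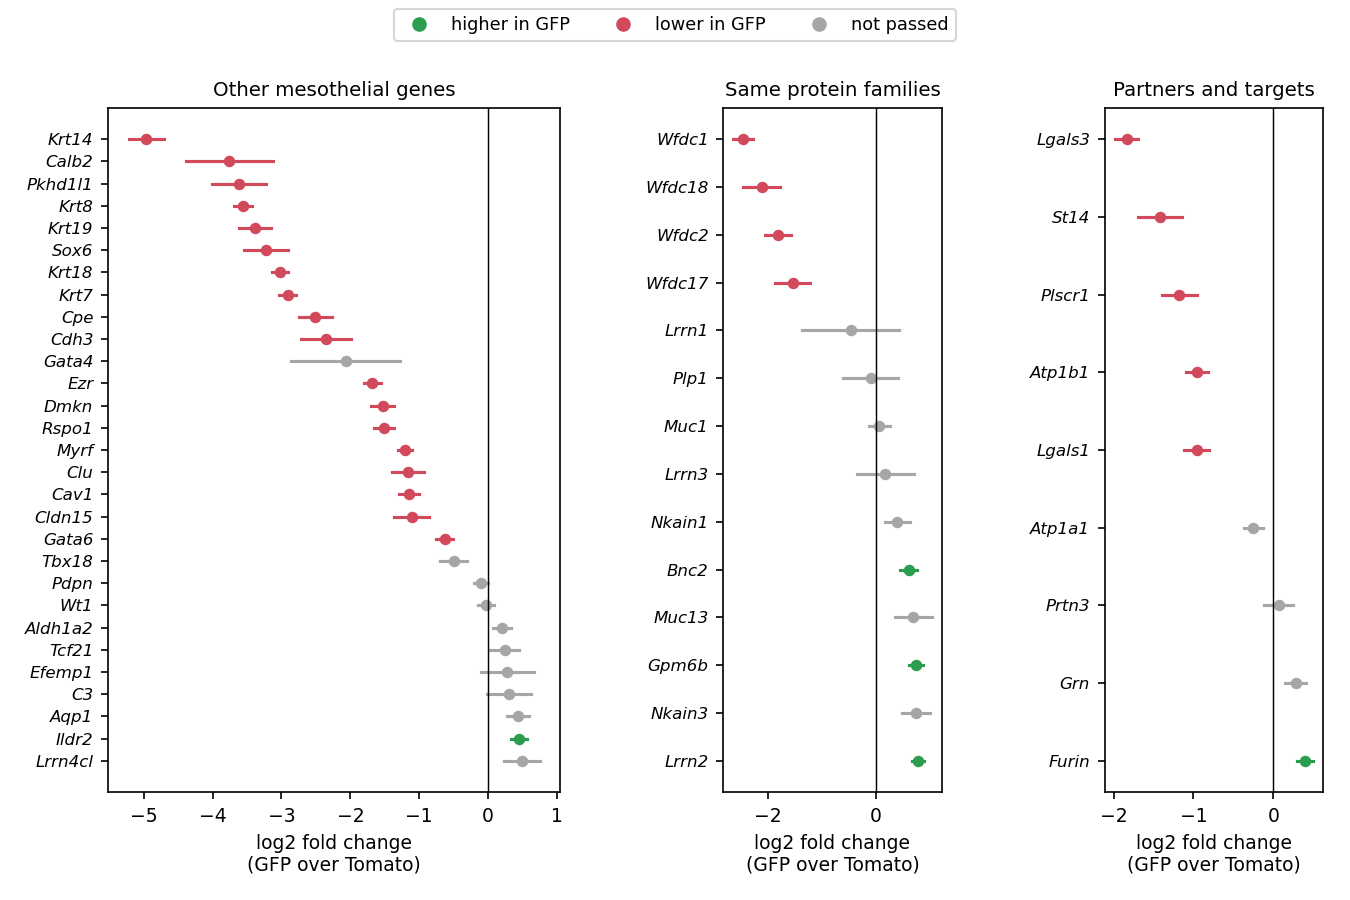
Log2 fold change (GFP over Tomato) with its standard error for the genes tested in 3 lists, coloured by the call at an adjusted p under 0.05. Of 29 other mesothelial genes 18 lie in the lower set, whereas the 14 relatives of the members divide into 4 lower, 3 higher and 7 not passed.

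The relatives of the members in the same protein families gave a mixed picture. Of 28 relatives only 14 had enough reads to be tested, and of these 4 were lower and 3 higher in GFP, with a median log2 fold change of 0.12. The corresponding shares of all genes tested were 15.7% and 13.1%. The uroplakin genes Upk1a, Upk2, Upk3a and Upk3bl, and Mslnl, the closest relative of mesothelin, had too few reads for a test, with means of at most 0.179 CPM in either fraction. Basonuclin 2, from Bnc2, went the other way from Bnc1: it had 48.9, 42.4 and 46.9 CPM in GFP libraries, against 36.9, 29.1 and 24.7 CPM in Tomato libraries. The fractions did not overlap, and Bnc2 passed as higher (a log2 fold change of 0.61 ± 0.15, SE with adjusted p = 0.0173). That call was lost without GFP replicate 1 (adjusted p = 0.0643), GFP replicate 3 (0.0527) or Tomato replicate 2 (0.0687). Gpm6b, the sister gene of Gpm6a, was likewise higher, at 257 ± 14.3 CPM in GFP, against 154 ± 24.8 CPM in Tomato (a log2 fold change of 0.74 with adjusted p = 0.00436). Lrrn2, a relative of Lrrn4, was higher by 0.78 on the log2 scale (adjusted p = 0.00174). Muc1, a membrane mucin of epithelia, was at 5.77 ± 0.737 CPM in GFP, against 5.52 ± 1.11 CPM in Tomato (a log2 fold change of 0.07 ± 0.19, SE with adjusted p = 0.813).

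The 4 lower relatives were all of the family of Slpi, whose proteins carry the whey acidic protein fold. Wfdc1 had 5.6, 8.21 and 6.88 CPM in GFP libraries, against 38.8, 44.5 and 30.4 CPM in Tomato libraries (a log2 fold change of -2.46 with adjusted p = 0.000114). Wfdc2, Wfdc18 and Wfdc17 had log2 fold changes of -1.81, -2.11 and -1.54 (adjusted p = 0.00178, 0.00325 and 0.0129). Wfdc2 and Wfdc18 averaged at most 1.59 CPM in either fraction, and the Wfdc17 call was lost without the filter on low counts (adjusted p = 0.0675).

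Of 9 known partners and targets of the member proteins tested, 5 were lower and 1 higher in GFP. Over all genes tested 15.7% were lower and 13.1% higher. Lgals3 encodes galectin-3, which binds the sugars of MUC16 in human cells. It averaged 71.7 ± 6.09 CPM in GFP, against 256 ± 52.1 CPM in Tomato (a log2 fold change of -1.84 with adjusted p = 0.000156). Lgals1, the related galectin gene, had a log2 fold change of -0.96 (adjusted p = 0.00387), and so did Atp1b1, the sodium pump subunit gene (adjusted p = 0.00224). St14, the gene of the membrane protease matriptase, and Plscr1, whose human product binds SLPI, were lower by less than Lgals3 (log2 fold changes -1.42 and -1.18, adjusted p = 0.00675 and 0.0084). Furin, which encodes the protease that cuts the mesothelin precursor, was higher (a log2 fold change of 0.40 with adjusted p = 0.0185). Its adjusted p was 0.0574 without GFP replicate 1, 0.0695 without GFP replicate 3, 0.0839 without Tomato replicate 2, and 0.15 with library size as the scaling. Of the neutrophil proteases that SLPI inhibits, Elane had at most 0.0538 CPM in any library and Ctsg had no read in any of the 6. Prtn3, the gene of the related proteinase 3, averaged 2.73 ± 0.312 CPM in GFP, against 2.6 ± 0.128 CPM in Tomato. Grn, whose product SLPI shields from cutting, did not pass (a log2 fold change of 0.28 with adjusted p = 0.126).

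Markers of some other cells moved with the members. For the marker counts here and below, the shares over all genes tested were 15.7% lower and 13.1% higher. Of 12 macrophage markers, 12 were lower in GFP, and they summed to 150 to 237 CPM in GFP libraries and to 1072 to 2682 CPM in Tomato libraries. Ptprc, Csf1r and Adgre1 had log2 fold changes of -3.20, -2.24 and -2.21 (adjusted p = 0.000318, 0.00143 and 0.0128); without the filter on low counts Adgre1 did not pass (adjusted p = 0.0789). Of 8 neutrophil markers 7 were lower, with sums of 19.6 to 41.2 CPM in GFP and 96.3 to 167 CPM in Tomato. S100a8, S100a9 and Cxcr2 had log2 fold changes of -3.87, -3.60 and -3.12 (adjusted p = 0.000151, 0.00158 and 0.000798). Without GFP replicate 3 that of S100a9 was -4.33. Slpi is also made by macrophages, neutrophils and epithelia. In the Tomato libraries the macrophage sum was 1072, 1794 and 2682 CPM and the neutrophil sum 96.3, 114 and 167 CPM. Both were highest in replicate 3, as Slpi was at 695 CPM, while Msln was lowest there at 264 CPM. The part of these cells in the Slpi level was not tested.

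Msln, Muc16 and Slpi can also be made by carcinoma cells. The hosts carried the reporter, and none is named for the injected line. Neither sort colour is therefore known to mark carcinoma cells. Of 16 epithelial markers 12 were tested and 6 were lower in GFP, with sums of 95.1 to 108 CPM in GFP libraries and 168 to 246 CPM in Tomato libraries. Epcam averaged 4.94 ± 0.771 CPM in GFP, against 12.3 ± 2.61 CPM in Tomato (a log2 fold change of -1.32 with adjusted p = 0.00181). Cdh1 had a log2 fold change of -1.74 (adjusted p = 0.0096), Spint1 of -3.78 (adjusted p = 0.00129) and the claudin gene Cldn3 of -3.75 (adjusted p = 3.84e-05). The claudin genes Cldn4 and Cldn7 did not pass (log2 fold changes -0.52 and -0.61, adjusted p = 0.162 and 0.0567). Sox9, Lcn2, Tff2 and Ehf did not pass either (log2 fold changes 0.08, -0.41, -1.08 and -0.52). Esrp1 and Grhl2, regulators that define epithelia, stood at no more than 0.423 CPM in any library, and Tff1 had no read in GFP. In Tomato the epithelial sum was highest in replicate 3, at 246 CPM. Slpi was also highest there, at 695 CPM, while Msln, Muc16, Upk3b, Lrrn4 and Gpm6a were lowest there. Upk1b, Nkain4 and Bnc1 were lowest in replicate 1. The part of carcinoma cells in the member levels was not tested.

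Endothelial markers ran the other way, with all 8 higher in GFP. They summed to 366 to 574 CPM in GFP and to 28.1 to 93.8 CPM in Tomato. The list was written for lymphatic endothelium, but its genes Cldn5, Cdh5, Pecam1 and Tie1 are general endothelial genes. Prox1, Lyve1 and Flt4 had log2 fold changes of 3.02, 2.92 and 2.81 (adjusted p = 0.00687, 0.00462 and 0.00117); without the filter on low counts Prox1 did not pass (adjusted p = 0.0549). Without Tomato replicate 1 its log2 fold change was 3.70. For all 8 the highest GFP library was replicate 1, in which 8 of the 9 mesothelial markers were lowest. Of all genes tested, 34.9% were highest and 36.6% lowest in that GFP library. Of 11 fibroblast markers 6 were higher, Col1a1, Col1a2 and Col3a1 among them (log2 fold changes 1.30, 0.94 and 0.70, adjusted p = 0.00321, 0.0076 and 0.0375). Leaving out any 1 library other than Tomato replicate 1 ended the Col3a1 call, with an adjusted p of 0.052 to 0.133. Fibroblast markers summed to 129836 to 144520 CPM in GFP and 63566 to 96598 CPM in Tomato. The 9 mesothelial genes were thus a small part of the RNA in either fraction. The part of other cells in the member levels was not tested.

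**Figure D5:**
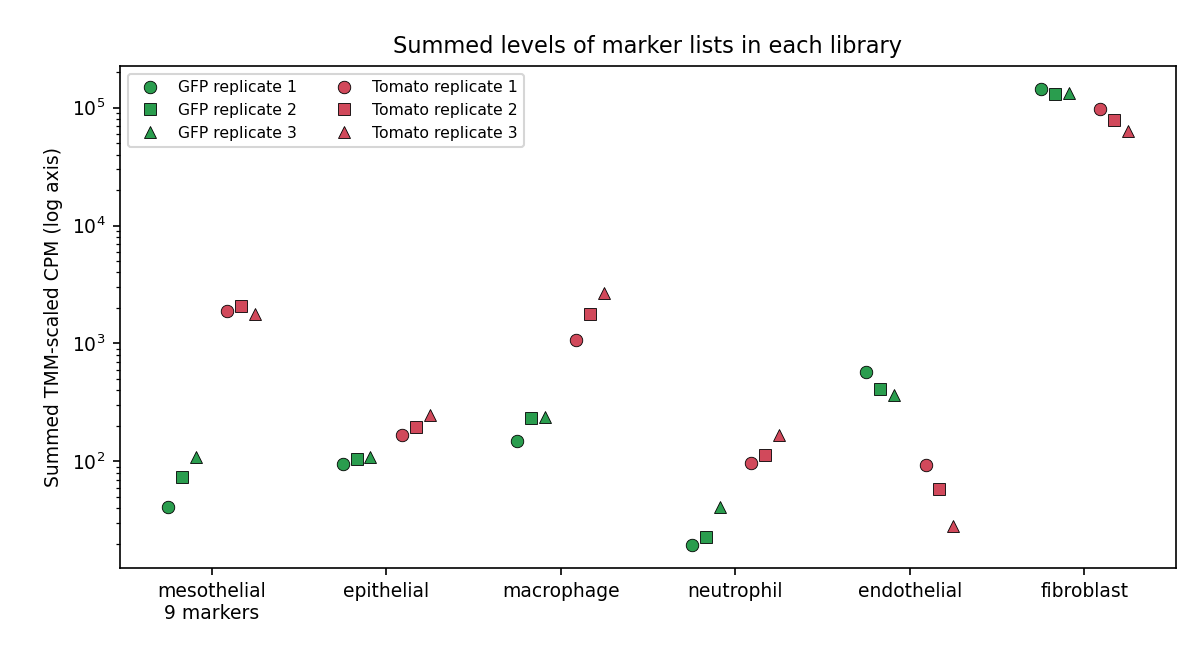
Summed TMM-scaled CPM (log axis) of the 9 mesothelial markers and of marker lists of other cells in each library, with the shape giving the replicate. The mesothelial sum is 40.8 to 108 in GFP and 1761 to 2072 in Tomato, and the macrophage sum 150 to 237 in GFP and 1072 to 2682 in Tomato.

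The profiles most like the members' mean profile were sought among 12884 other protein-coding genes with a mean of at least 1 CPM in either fraction. Likeness was the Euclidean distance between centred log2 CPM over the 6 libraries. The nearest was Crb2, a gene of epithelial cell polarity, at a distance of 0.661, with 0.296, 1.16 and 1.92 CPM in GFP libraries, against 20.6, 23.8 and 21.4 CPM in Tomato libraries. It was nearer than any member, of which Bnc1 was the nearest at 0.708 and Nkain4 the farthest at 2.85. Next came the interleukin 18 receptor gene Il18r1 (0.81), the auxilin gene Dnajc6 (0.865), the zinc transporter gene Slc30a2 (0.943), Krt14 (0.944), Adgrf4 (1.02), the megalin gene Lrp2 (1.04), Faim2 (1.06), Krt76 (1.08) and the aspartic protease gene Napsa (1.15). Il18r1 averaged 0.425 ± 0.32 CPM in GFP, against 9.43 ± 1.24 CPM in Tomato, and Lrp2 averaged 0.192 ± 0.147 CPM in GFP, against 6.04 ± 1.58 CPM in Tomato. Like the members, these 10 genes were chosen on the contrast between the fractions and are given without a test, apart from Krt14, which the list of mesothelial genes also held. In GFP they rested on few reads, 1 to 68 in a library.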

How the data were processed

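RNA of 3 GFP and 3 Tomato libraries was analysed, grouped by their titles. The authors deposited a table of raw read counts for each library; per the file headers, 1 column ignores strand and 2 others hold one strand each. Libraries came from 150 ng of total RNA and a TruSeq kit, per the labels' protocols. Per the submitters' processing notes, Trim Galore 0.4.3, STAR 2.5.2b and the build GRCm38 were used, with no roles given; the sources used here do not give the annotation release. Counts from the unstranded column were used, since the single-strand columns were nearly equal (ratio 1.002 to 1.006). Names, positions and exon lengths came from GENCODE M21, which matched 49412 of the 49671 identifiers; the others held 0.00762% of counts.

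The contrast of GFP over Tomato was fitted with edgeR 4.0.16 (R 4.3.3; robust quasi-likelihood, two-sided), with TMM scaling, filterByExpr and Benjamini-Hochberg adjustment over 15608 genes, threshold 0.05. The model had no block. Errors are SD over libraries, or SE derived from the F statistic. The common biological coefficient of variation was 0.158. Depth limits genes under 1 CPM. Libraries of a group differed by more than counting noise, with 28 to 118 as the chi-square divided by its degrees of freedom. The fit was tested on simulated data.

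The members and lists were chosen with earlier results of these data known. The rule for named genes took the members, in each of 3 lists up to 6 lower and 4 higher genes with the smallest adjusted p, Wt1, Calb2, Bnc2, Gpm6b, Muc1 and Lgals3 in any case, the 10 nearest profiles (log2 CPM, prior count 0.5) and the first 3 genes of each marker list. A further 16 genes, and those named as having few or no reads, were chosen after their values were seen: Pkhd1l1, Sox6, Myrf, Gata6, Gata4, Rspo1, Dmkn, Cldn15, Cdh3, Pdpn, Aldh1a2, Lrrn4cl, C3, Grn, Prtn3 and Cldn3. Also named then were Aqp1, Efemp1, Tcf21, Tbx18, Cldn4, Cldn7, Sox9, Lcn2, Tff2 and Ehf, which did not pass. Alternatives were 2 other scalings, 2 other filters, DESeq2 1.42.0, a single strand column, the replicate number as a block, another exon length and leaving out each library.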

Additional observations from a re-analysis of the deposited data

How the results depend on the processing

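The members kept their direction under all 13 alternatives, with a median log2 fold change of -5.79 to -4.7. Their summed level stayed at -5.06 to -4.4 on the log2 scale over 9 alternatives, and the shift in the share of Slpi at -28.8 to -20.7 percentage points over 8. Relatives numbered 3 to 4 lower and 2 to 4 higher, and other mesothelial genes 17 to 19 lower, over 13 alternatives each.

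Counts over all genes depended more on the choices. Leaving out 1 library gave 833 to 2392 genes higher and 1380 to 2793 lower in GFP, and 0 to 1 other mesothelial genes higher, by edgeR. The count was 0 without GFP replicate 1, 2 or 3 or Tomato replicate 2, where 1 to 3 had an unadjusted p under 0.05. The lowest counts came without Tomato replicate 2 (833 higher, 1528 lower) and without GFP replicate 1 (920 higher, 1380 lower); without GFP replicate 3 they were 1195 and 1551. With library size as the scaling 1128 genes were higher and 3851 lower, 22.7% of the calls being higher instead of 45.5%, and all genes had a median of -0.16 on the log2 scale. No other mesothelial gene was then higher (0 by edgeR, 1 at an unadjusted p under 0.05; DESeq2 with its own size factors called 1). The causes were not tested.

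Adding the replicate block raised the count of higher genes to 3137, and of higher genes among the other mesothelial genes to 3. Libraries of equal number deviated together with correlations of 0.379, 0.0867 and 0.318, and with a prior count of 2 in place of 0.5 of 0.403, 0.108 and 0.347. As one of these lies on either side of the limit of 0.1, the numbers were not taken to pair the libraries. Each library correlated best with its own number. The Gata4, Lrrn4cl and Grn tests passed with the block (adjusted p = 0.00467, 0.00288 and 0.035). Without the block their log2 fold changes (GFP over Tomato) were -2.07, 0.49 and 0.28, so Lrrn4cl and Grn went the other way from Gata4. Of 935 values for single named genes under an alternative, 904 kept their call, or stayed within 1 SD where no test was given. That SD is the spread between libraries, a limit that leaving out 1 library can seldom pass. For genes without a test it is therefore a weak check. Without GFP replicate 3 the folds of Bnc1 and Lrrn4, not in log2, moved 2.03 and 1.89 times and still lay within it. Reads per gene limit Muc16 and Bnc1 in GFP, where single libraries held as few as 6 and 13.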
